A study of Mus musculus with 8 samples.

Results

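Neuroblasts are young migrating neurons, and 327 of the 50254 cells kept from the mouse cortex libraries were counted as such. A cell was kept with at least 500 detected genes and under 15% of its unique molecular identifiers (UMIs, the molecules counted) from mitochondrial genes. It was counted as a neuroblast when at least 3 of the 6 genes Dcx, Sox11, Tubb3, Dlx1, Igfbpl1 and Cd24a were detected, Dcx or Sox11 among them. Cells were left out at 20 or more UMIs per 10000 from the endothelial genes Cldn5, Flt1 and Pecam1 together, from the microglial genes C1qa and C1qb, or from the oligodendrocyte genes Mag, Mog, Mobp and Cldn11. The members were thus chosen on measured values, so the levels of these genes, and every difference between neuroblasts and other cells, are descriptions without a test.

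The series is single-cell RNA-seq of cortical tissue from 8 week old mice after perfusion, with 4 groups and the brains of 3 mice pooled in each. The Lama4-/- group lacks the laminin alpha 4 chain and has a WT group of its own (here Lama4 WT). The Tek-Cre:Lama5-/- group lacks laminin alpha 5 in the cells where the Tek promoter drives Cre, which are mainly of the endothelial lineage, and has a second WT group (here Lama5 WT). No genetic change shared by all 4 groups is named in the labels. The labels give 2 samples a group, but both Lama4-/- samples hold identical values and were counted as 1 library, so that 7 libraries entered and no test of Lama4-/- was made. The libraries of a group come from 1 pool of mice, so p-values measure only the spread between libraries, which may be technical.

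In the adult rodent forebrain, neural stem cells of the ventricular-subventricular zone give rise to dividing intermediate progenitors and then to neuroblasts, which migrate as chains along the rostral migratory stream to the olfactory bulb. There most of them become GABAergic granule and periglomerular interneurons. They carry doublecortin and other regulators of microtubules, polysialylated NCAM on the surface, and the Dlx, Sp8 and Sp9 transcription factors.

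The libraries held 35479306 to 48314458 UMIs over all deposited barcodes, and the neuroblasts of a library 173990 to 519451. The number of neuroblasts was 20 and 26 in the Lama4 WT libraries, 21 in Lama4-/-, 48 and 70 in the Lama5 WT libraries and 68 and 74 in Tek-Cre:Lama5-/-. Their median depth was 7463 to 9469 UMIs in the libraries of the Lama4 experiment and 4010 to 5351 in those of the Lama5 experiment, against 3029 to 6688 for the other cells. No cell barcode of a neuroblast was shared between libraries. Of 379 cells with the required genes, 35 were over the endothelial limit, 9 over the microglial and 10 over the oligodendrocyte limit and were left out, some on more than 1. Just inside the rule were 53 neuroblasts with exactly 3 of the 6 genes, and just outside were 164 cells with 2. All 6 genes were detected in 147 neuroblasts.

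Dcx and Sox11 opened the rule, and their upstream sequences are shown as the reference context of the genes the cells were found by. Both are read from RefSeq promoters (GRCm38.p6), the 250 bases before the annotated start, 5′ to 3′ on the gene's strand: Dcx at chrX:143933220-143933469 (minus strand, the first of 2 RefSeq starts) and Sox11 at chr12:27342719-27342968 (minus strand). The capitals mark TAATTA, a homeodomain core motif of the kind DLX factors bind, and CAGCTG or CAGATG, E-box motifs of basic helix-loop-helix factors, searched on both strands.
Dcx: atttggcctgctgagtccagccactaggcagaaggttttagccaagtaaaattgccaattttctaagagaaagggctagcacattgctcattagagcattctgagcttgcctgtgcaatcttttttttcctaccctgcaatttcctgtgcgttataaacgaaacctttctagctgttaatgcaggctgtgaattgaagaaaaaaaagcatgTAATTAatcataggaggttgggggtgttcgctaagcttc
Sox11: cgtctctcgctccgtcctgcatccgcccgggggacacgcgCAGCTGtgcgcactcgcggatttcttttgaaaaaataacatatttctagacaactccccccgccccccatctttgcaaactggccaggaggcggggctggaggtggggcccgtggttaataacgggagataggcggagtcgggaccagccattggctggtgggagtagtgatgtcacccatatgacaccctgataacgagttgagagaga
The Dcx stretch held 1 TAATTA, 39 bases before the first RefSeq start and 134 before the second. The gene coordinates of Dcx given below reach into this stretch, so the annotated starts of Dcx differ. The Sox11 stretch held 1 CAGCTG, 210 bases before its start. Of 27025 promoters of the same length, 4.90% held TAATTA, 12.8% CAGCTG and 14.5% CAGATG. These matches describe letters and not binding sites.

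Dcx, the microtubule-associated protein doublecortin (GRCm38, chrX:143855842-143933311), had 421 and 233 CPM in the Lama4 WT libraries, 402 in Lama4-/-, 453 and 468 in the Lama5 WT libraries, and 432 and 477 in Tek-Cre:Lama5-/- (CPM, a gene’s UMIs per 1000000 UMIs summed over the neuroblasts of a library). It was detected in 270 of 327 cells, and all other cells together had 1.05 CPM. In endothelial cells, which should lack it, 0.0383% to 0.315% of cells had a Dcx UMI. Sox11, an HMG-box factor of immature neurons (chr12:27334264-27342574), was the most abundant of the 6 at 2124 and 2081 CPM in Lama4 WT, 2627 in Lama4-/-, 2870 and 2464 in Lama5 WT, and 2864 and 2804 in Tek-Cre:Lama5-/-. It was found in 323 cells and reached 8.55 CPM in the other cells. For both genes the Lama4 WT 2 library was lowest.

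Tubb3, a neuronal beta-tubulin (chr8:123411424-123422015), was found in 274 neuroblasts, with 942 and 571 CPM in the Lama4 WT libraries, 994 in Lama4-/-, 642 and 397 in the Lama5 WT libraries, and 427 and 342 in Tek-Cre:Lama5-/-. Lama4-/- and Lama4 WT 1 were highest. Dlx1, a homeobox factor of GABAergic precursors (chr2:71528113-71533981), was found in 239 neuroblasts at 361 and 294 CPM in Lama4 WT, 362 in Lama4-/-, 575 and 568 in Lama5 WT, and 534 and 532 in Tek-Cre:Lama5-/-, and its 3 lowest values were those of the Lama4 experiment. Igfbpl1 (chr4:45809468-45826923), an insulin-like growth factor binding protein family member, was found in 272 neuroblasts and was highest in the Lama4-/- library at 1368 CPM, against 570 to 822 in the others. Cd24a, a surface glycoprotein (chr10:43578284-43584265), was found in 250 neuroblasts at 199 to 463 CPM. It is the least selective of the 6, since ependymal cells had 442 CPM and the other cells together 38.9.

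**Figure D1:**
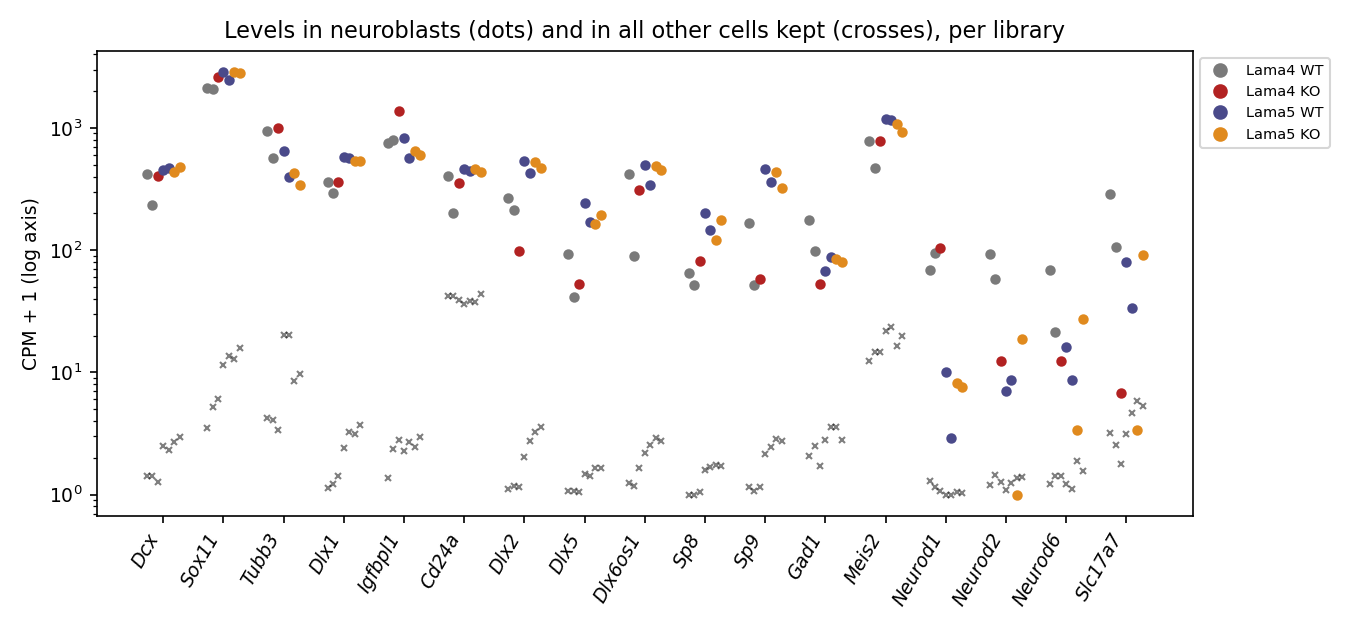
CPM + 1 on a log axis for 17 genes in each library: dots are the summed neuroblasts and crosses all other cells of the same library. Colours give the groups, and KO stands for -/-. Dcx stood at 233 to 477 CPM in neuroblasts and at 0.266 to 1.94 CPM in other cells.

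The genes of GABAergic neurons bound for the olfactory bulb, which the rule did not use, were present in every library. Dlx2, a partner of Dlx1 at the same locus (chr2:71543408-71546754), was found in 222 of 327 neuroblasts at 264 and 213 CPM in the Lama4 WT libraries, 97.7 in Lama4-/-, 539 and 425 in the Lama5 WT libraries, and 530 and 472 in Tek-Cre:Lama5-/-. Sp9, a zinc finger factor of striatal and bulb interneuron precursors, had 164 and 50.7 CPM in Lama4 WT, 57.5 in Lama4-/-, 463 and 360 in Lama5 WT, and 437 and 322 in Tek-Cre:Lama5-/-. The 3 libraries of the Lama4 experiment lay below all 4 of the Lama5 experiment for both of these genes. Meis2, a homeobox cofactor, had 773 and 473 CPM in the Lama4 WT libraries, 776 in Lama4-/-, 1172 and 1153 in the Lama5 WT libraries, and 1078 and 927 in Tek-Cre:Lama5-/-, with the same order. Sp8 ranged from 50.7 to 80.5 CPM in the Lama4 experiment and from 121 to 201 in the Lama5 experiment, and Dlx5 from 40.5 to 92.2 and from 161 to 243. Gad1 and Gad2, the enzymes that make GABA, did not follow that order. Gad1 stood at 176 and 97.9 CPM in Lama4 WT, 51.7 in Lama4-/-, 66.9 and 86.6 in Lama5 WT, and 83.1 and 79.5 in Tek-Cre:Lama5-/-, and Gad2 at 94.6 to 284 CPM over the 7 libraries. Vax1, a ventral homeobox factor, was at 0 counts, and 3 counts would be 1.23 CPM.

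Genes of dorsal, glutamatergic neurogenesis were found in fewer neuroblasts, and some had the opposite order. Eomes (TBR2), the T-box factor of intermediate progenitors, was found in 29 neuroblasts at 96.2 and 111 CPM in the Lama4 WT libraries, 184 in Lama4-/-, 39.6 and 28.9 in the Lama5 WT libraries, and 26.1 and 22.1 in Tek-Cre:Lama5-/-. Neurod1, a proneural factor, was found in 17 neuroblasts at 68.1 and 94.6 CPM in Lama4 WT, 103 in Lama4-/-, 9.13 and 1.93 in Lama5 WT, and 7.12 and 6.62 in Tek-Cre:Lama5-/-. Neurod2, which follows it in excitatory neurons, had 92.2 and 57.4 CPM in the Lama4 WT libraries, 11.5 in Lama4-/-, 6.09 and 7.70 in the Lama5 WT libraries, and 0 and 17.7 in Tek-Cre:Lama5-/-. Eomes and Neurod1 were higher in each library of the Lama4 experiment than in any of the Lama5 experiment. Neurod2 was so only in the Lama4 WT libraries. Pax6, which is active in dorsal progenitors and also in bulb-bound dopaminergic neuroblasts, had 54.0 to 168 CPM in the Lama4 experiment and 298 to 358 in the Lama5 experiment. Nfix, a nuclear factor of radial glia and neuroblasts, was high throughout at 933 to 1740 CPM.

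The upstream sequences of Dlx2 and Neurod2 are shown as an example of each lineage: Dlx2 at chr2:71546755-71547004 and Neurod2 at chr11:98329646-98329895 (RefSeq, GRCm38.p6, both on the minus strand, 250 bases before the start), with the motifs named above in capitals.
Dlx2: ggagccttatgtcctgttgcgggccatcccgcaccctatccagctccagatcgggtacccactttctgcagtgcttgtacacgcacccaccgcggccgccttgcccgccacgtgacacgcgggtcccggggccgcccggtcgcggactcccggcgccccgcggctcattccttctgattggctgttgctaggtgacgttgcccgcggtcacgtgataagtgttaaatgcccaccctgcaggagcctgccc
Neurod2: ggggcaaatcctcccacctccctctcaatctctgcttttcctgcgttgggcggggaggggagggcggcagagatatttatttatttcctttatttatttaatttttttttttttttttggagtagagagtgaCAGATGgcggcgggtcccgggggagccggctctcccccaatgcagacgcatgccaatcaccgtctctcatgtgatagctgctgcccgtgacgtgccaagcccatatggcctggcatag
The Neurod2 stretch held 1 CAGATG, 118 bases before the start, and in the Dlx2 stretch none of these motifs were found. Dlx5, Dlx6 and Igfbpl1 were not in the promoter table.

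Each neuroblast was then placed by whether it detected at least 2 of 8 GABAergic genes and at least 2 of 8 glutamatergic genes, a split chosen after the levels were seen. The first were Dlx2, Dlx5, Dlx6, Dlx6os1, Sp8, Sp9, Gad1 and Gad2. The second were Eomes, Neurod1, Neurod2, Neurod4, Neurod6, Tbr1, Slc17a6 and Slc17a7. The GABAergic genes alone were present in 247 of 327 cells (75.5%), the glutamatergic genes alone in 33 (10.1%), both in 1 and neither in 46. The GABAergic class made up 60.0% and 34.6% of neuroblasts in the Lama4 WT libraries, 38.1% in Lama4-/-, 91.7% and 82.9% in the Lama5 WT libraries and 82.4% and 81.1% in Tek-Cre:Lama5-/-. The glutamatergic class made up 35.0% and 38.5%, 23.8%, 6.25% and 2.86%, and 1.47% and 6.76% in the same order. In counts, 22 of its cells came from the 67 neuroblasts of the Lama4 experiment and 11 from the 260 of the Lama5 experiment. Depth differed too, and with every cell thinned to 2000 UMIs (shallower cells left out, which kept 20, 24, 18, 41, 59, 55 and 66 cells) the glutamatergic share was 30.0%, 16.7%, 16.7%, 4.88%, 1.69%, 1.82% and 6.06%. The 3 values of the Lama4 experiment stayed above the other 4.

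The 2 classes also differed in genes that did not define them. Meis2 stood at 1270 CPM in the GABAergic class and 361 in the glutamatergic class. Dlx1, although a rule gene, had 700 CPM in the GABAergic class and 0 counts in the glutamatergic class. The glutamatergic class instead held Neurog2, a dorsal proneural factor, at 99.2 CPM against 0.661, and Bhlhe22, a factor of cortical projection neurons, at 81.4 CPM against 0 counts. Among other dorsal genes not used in the split, Emx1 had 45.8 CPM there against 0.661. Prox1, Pax6 and Nfix went the other way, at 71.2, 73.7 and 892 CPM against 127, 347 and 1214 in the GABAergic class. In the glutamatergic class Snap25, a synaptic vesicle fusion protein of mature neurons, stood at 1696 CPM against 106. Rbfox3 (NeuN) stood there at 175 CPM against 17.9. At least 5 markers of mature neurons were detected in 8 of the 22 glutamatergic cells of the Lama4 experiment and 6 of the 11 of the Lama5 experiment, against 4 of 29 and 4 of 218 GABAergic cells. These markers include Slc17a7 and Gad2, which also helped define the classes, so these counts partly repeat the split. Igfbpl1 stood at 811 CPM in the GABAergic class and 824 in the glutamatergic class. The 33 glutamatergic cells are described here by their leading genes, which also defined the class, as those of the GABAergic class did.

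**Figure D2:**
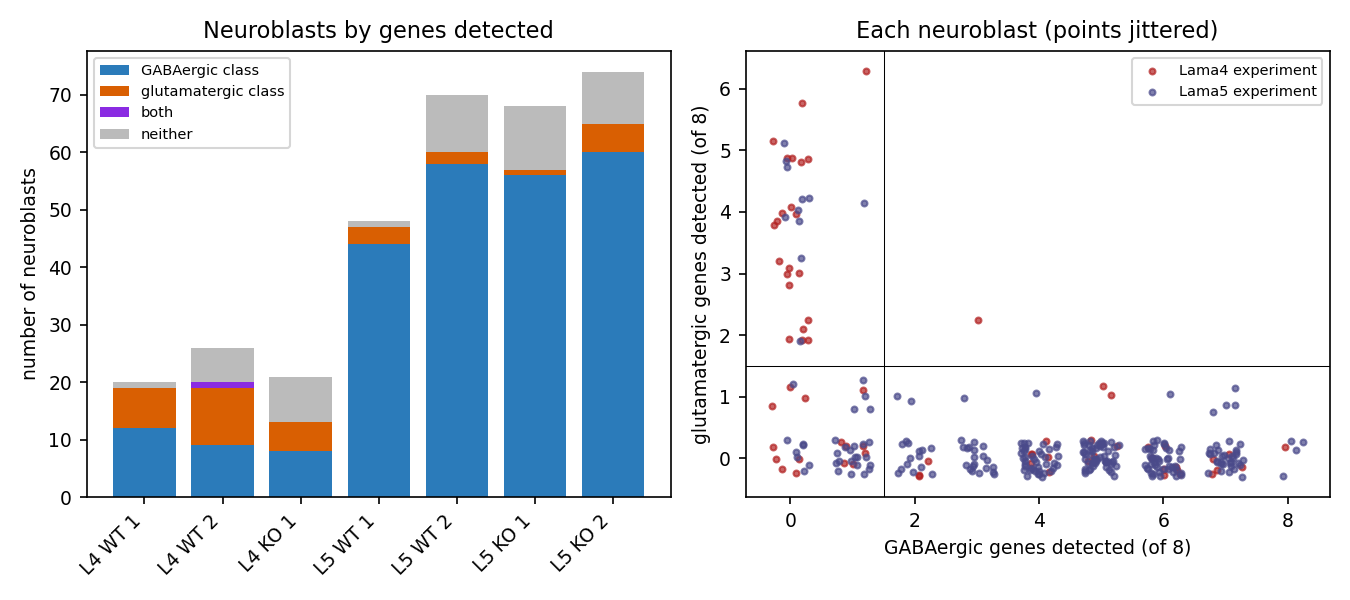
Left, stacked bars give the number of neuroblasts of each library in the 4 lineage classes (KO stands for -/-); right, each point is a neuroblast placed by its number of GABAergic and glutamatergic genes detected of 8 each, slightly displaced so that points do not hide each other, with lines between 1 and 2 genes. The glutamatergic class makes up 23.8% to 38.5% of neuroblasts in the Lama4 experiment and 1.47% to 6.76% in the Lama5 experiment.

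Of the markers of interneurons from the medial ganglionic eminence, Lhx6, Lhx8, Nkx2-1 and Sst had 0 counts in all 327 cells. Satb1, a chromatin organiser on the same list that other neurons also express, was not: it had 103 CPM over all neuroblasts, from 73.6 to 176 CPM in a library, and was found in 136 cells. Adarb2, found in caudally derived interneurons, had 93.0 CPM, and Nr2f1, a nuclear receptor of the same lineage, had 351 CPM. Htr3a, the serotonin receptor channel of these cells, had 16 counts in all.

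The 25 genes of the migration and cytoskeleton list summed to 20162 to 24834 CPM in the neuroblasts of a library and to 3191 to 3925 CPM in its other cells. The largest contributions came from Stmn1, a microtubule destabiliser (3751 CPM), the tubulins Tuba1a (3265 CPM), Tubb5 (2585 CPM) and Tubb2b (1443 CPM), Tmsb10, an actin-sequestering peptide (1614 CPM), and Marcks, a membrane-bound actin regulator (1578 CPM). All are levels in CPM without a length term, since the kit counts the 3′ ends of transcripts. Ncam1, the carrier of polysialic acid, had 695 CPM and St8sia2, a sialyltransferase that adds it, 73.3 CPM. Receptors that guide migrating neuroblasts were measured too: Robo2, a Slit receptor, had 141 CPM, Lrp8, a reelin receptor, 124 CPM, Erbb4, a neuregulin receptor, 58.2 CPM, and Cxcr4, the chemokine receptor, 17.2 CPM. Epha4, an ephrin receptor, had 182 CPM and Plxna4, a semaphorin receptor, 71.7 CPM. Nrp1, the semaphorin and VEGF co-receptor, had 27.0 CPM, below the other cells in 7 of 7 libraries. Prokr2, the prokineticin receptor needed for entry into the bulb, had 40 counts over all neuroblasts.

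Outside the fixed lists, 1405 genes reached 100 CPM in the neuroblasts together and were found in at least 10 neuroblasts of every library, and they were ordered by their ratio to the other cells. Srrm4, a neuronal splicing regulator, led with a ratio of 222, followed by Ttc9b at 173, Elavl2, an RNA-binding protein of neurons, at 172, Nol4 at 134, Elavl4 at 131, Bcl11a, a zinc finger factor of forebrain neurons, at 127 and Myt1l, a repressor of non-neuronal genes, at 113. Among the abundant ones, Rtn1, a reticulon, had 1327 CPM, was found in 315 of 327 cells and had a ratio of 52.4. Mdk, the growth factor midkine, had a ratio of 40.1. Others were Gm17750, Miat, Sept3, Bex2, Dbn1, 6330403K07Rik, H1fx, Kif5c, Lmnb1, Nsg2, Hmgb3, Mex3a, C130071C03Rik, Gng3 and Ctxn1, with ratios from 88.5 down to 26.7. These ratios partly repeat the selection and are no test.

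The laminins deleted in these mice were almost absent from neuroblasts in every group. Lama4 had 3 counts in the 327 cells together, 1 in the Lama5 WT 1 library and 2 in Tek-Cre:Lama5-/- 1. Lama5 had 0 counts, and 3 counts would be 1.23 CPM. The check of the labels therefore comes from endothelial cells of the same libraries: a Lama4 UMI was found in 26.8% and 26.5% of them in Lama4 WT, 0.0383% in Lama4-/-, and 12% to 16.7% in the Lama5 experiment. A Lama5 UMI was found in 16.3% and 16% of endothelial cells in Lama5 WT and in 9.0% and 9.17% in Tek-Cre:Lama5-/-, at median depths of 3511.5 and 3374 UMIs against 3040 and 2794.5. Laminin chains of all kinds summed to 15.2 to 155 CPM in neuroblasts and 245 to 344 CPM in the other cells.

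Laminin receptors summed to 206 to 342 CPM in neuroblasts, below the 1394 to 1669 CPM of the other cells in 7 of 7 libraries. Itgb1, the integrin beta 1 chain shared by most laminin-binding integrins, was found in 150 neuroblasts at 92.2 and 74.3 CPM in Lama4 WT, 121 in Lama4-/-, 119 and 135 in Lama5 WT, and 171 and 130 in Tek-Cre:Lama5-/-. Itgb8, a beta chain that pairs with alpha V, had 130 CPM, and Dag1, which encodes dystroglycan, 118 CPM. Itga6, the alpha chain of laminin receptors on neuroblast chains, had 40 counts, Itgav 38 counts and Bcam, a laminin alpha 5 receptor, 3 counts. Neuroblasts of every group thus had UMIs for receptor chains and next to none for the 2 deleted ligand chains.

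Genes of progenitors were present beside those of young neurons. Sox4, an HMG-box factor related to Sox11, was found in 316 neuroblasts at 1358 to 2989 CPM over the libraries, against 129 CPM in the other cells. Sox2, the stem cell factor, was found in 238 at 168 to 508 CPM, and Insm1, a factor of intermediate progenitors, in 143 at 188 to 347 CPM. Dll3, a Notch ligand family member of newborn neurons, had 45.5 CPM against 0.243 in the other cells. Notch1 itself was as high in the other cells, at 172 and 170 CPM. Nes, Vim and Prom1, which endothelial and ependymal cells also make, were below the other cells in 7 of 7 libraries.

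Of the signalling genes, Fzd3, a frizzled receptor needed for axon guidance, had 185 CPM against 20.8 in the other cells, and Id4, an inhibitor of basic helix-loop-helix factors, 198 against 65.5, both above the other cells in 7 of 7 libraries. Ptch1, the hedgehog receptor, had 54.9 CPM, while Gli1, a target of active hedgehog signalling, had 0 counts. Id1 and Id3, targets of BMP signalling that vessels express strongly, had 43.8 and 30.3 CPM against 787 and 949 in the other cells. Lef1, the Wnt effector of brain endothelium, had 9 counts.

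Dividing neuroblasts were counted as cells with at least 2 of 16 genes of the G2 and M phases. Of 327, 182 had none of the 16, 33 had 1, 28 had 2 to 9 and 84 had 10 to 16. The 112 dividing cells made up 20% and 26.9% of neuroblasts in the Lama4 WT libraries (4 of 20 and 7 of 26), 19.0% in Lama4-/- (4 of 21), 29.2% and 38.6% in the Lama5 WT libraries (14 of 48 and 27 of 70) and 35.3% and 43.2% in Tek-Cre:Lama5-/- (24 of 68 and 32 of 74).

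Dividing neuroblasts were deeper, with medians of 7941 to 21449 UMIs against 2974 to 8217 in the others. In CPM, which allows for depth, they carried more of the progenitor genes in 7 of 7 libraries: Egfr, the receptor of activated progenitors, had 129 CPM against 36.7, Insm1 404 against 76.1, and Sox2 505 against 274. Dlx2 was also higher, at 503.5 against 276 CPM. The non-dividing neuroblasts had more of the genes of maturing neurons in 7 of 7 libraries: Dcx at 625 CPM against 261, Stmn2, a growth cone protein, at 1412 against 310, Gad1 at 183 against 14.8, and Meg3, a non-coding RNA of postmitotic neurons, at 4928 against 65.2. Sox11 differed in direction between libraries: it was higher in dividing cells in both Lama4 WT libraries, at 3604 against 1566 CPM and 2420 against 1794 CPM. It was lower in the other 5, at 2471 against 3470 CPM in Tek-Cre:Lama5-/- 1. Of the lineage classes, 80 of the 247 GABAergic cells and 4 of the 33 glutamatergic cells were dividing. So were 27 of the 46 cells of neither class and the 1 cell of both.

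**Figure D3:**
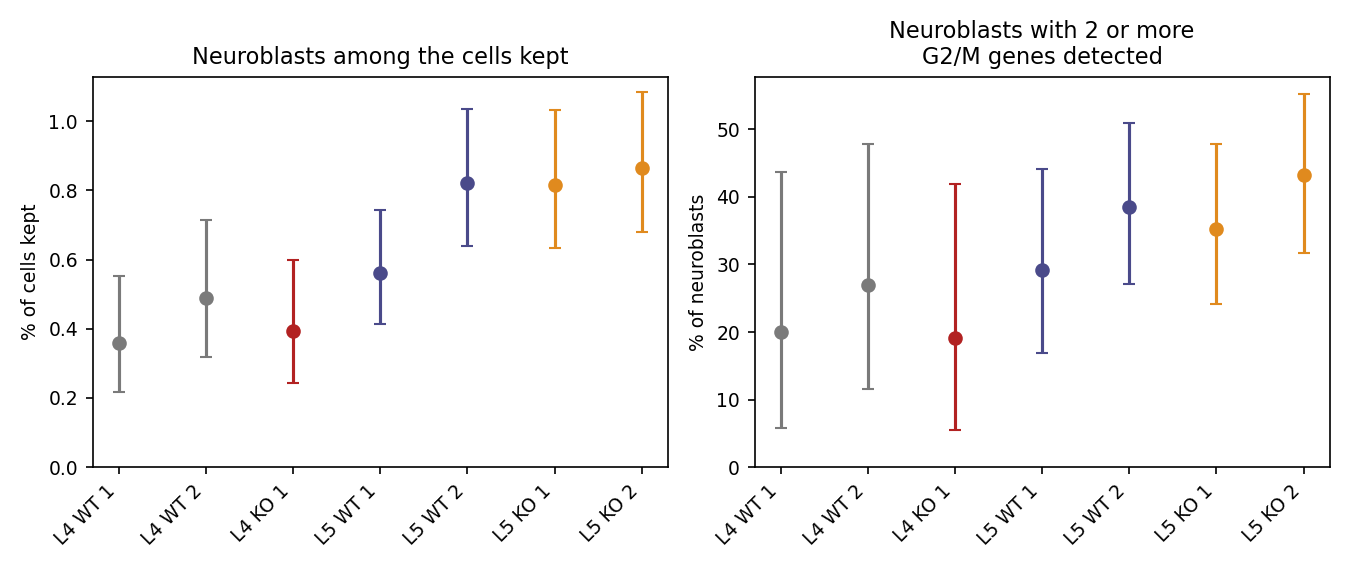
Left, percent of kept cells that were neuroblasts, and right, percent of neuroblasts with at least 2 of 16 G2/M genes, one point a library (L4 and L5 stand for the Lama4 and Lama5 experiments, KO for -/-); bars are exact Clopper-Pearson 95% intervals, which cover counting error only. Shares of 0.358% to 0.488% in the Lama4 experiment lie below the 0.561% to 0.865% of the Lama5 experiment. The interval of Lama4 WT 2 (0.319% to 0.714%) overlaps those of all libraries of the Lama5 experiment. The intervals of the dividing share overlap too.

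Neuroblasts made up 0.358% and 0.488% of cells kept in the Lama4 WT libraries, 0.392% in Lama4-/-, 0.561% and 0.821% in the Lama5 WT libraries, and 0.816% and 0.865% in Tek-Cre:Lama5-/-. The Tek-Cre:Lama5-/- mean of 0.840% ± 0.0350 (SD, n = 2) was 0.149 percentage points above the 0.691% ± 0.184 (SD, n = 2) of its WT, which did not pass (exact permutation test, two-sided, p = 0.667), and the libraries overlapped. They did not overlap with at least 4 rule genes required, where the difference was 0.166 points, with a mitochondrial limit of 10% (0.180 points) or with at least 1000 genes a cell (0.304 points), each at an exact permutation p of 0.333. An exact permutation test of 2 libraries against 2 cannot go below p = 0.333. Without Lama5 WT 1 the difference was 0.0195 points and without Lama5 WT 2 it was 0.279. The Lama4-/- value lay between its 2 WT libraries, 0.0304 points below their mean; the difference was -0.0955 points without Lama4 WT 1 and 0.0346 without Lama4 WT 2. With at least 4 rule genes required, Lama4-/- lay above both WT libraries, at 0.317% against 0.286% and 0.263%. The Lama5 WT libraries exceeded the Lama4 WT libraries by 0.268 points without overlap (exact permutation test, two-sided, p = 0.333), and by 0.138 without Lama5 WT 2. The shares of other cells differed between the libraries too: astrocytes made up 3.95%, 3.84%, 5.04%, 2.09%, 2.19%, 1.01% and 1.09% of cells in the same order, and the part of this in the shares was not tested.

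The dividing share was 39.3% ± 5.62 (SD, n = 2) in Tek-Cre:Lama5-/- and 33.9% ± 6.65 (SD, n = 2) in Lama5 WT, a difference of 5.40 points with overlapping libraries (exact permutation test, two-sided, p = 0.667). It was 0.697 points without Lama5 WT 1, 1.43 without Tek-Cre:Lama5-/- 2, 9.37 without Tek-Cre:Lama5-/- 1 and 10.1 without Lama5 WT 2. With all cells thinned to 2000 UMIs, the shares were 31.7% and 32.2% in Lama5 WT and 40.0% and 40.9% in Tek-Cre:Lama5-/-, 8.50 points apart without overlap and over 41, 59, 55 and 66 cells (exact permutation test, two-sided, p = 0.333, the smallest possible). They did not overlap either with 1 or more G2/M genes in place of 2 (9.29 points) or without cells of mixed markers (5.34 points), at the same exact p. Cells of mixed markers are neuroblasts with 20 or more UMIs per 10000 from the markers of any of 9 other classes, from astrocytes and pericytes to myeloid cells. The difference of the Lama4-/- library from the mean of its WT libraries was -4.41 points, -7.88 without Lama4 WT 1 and -0.952 without Lama4 WT 2. Lama5 WT lay 10.4 points above Lama4 WT (exact permutation test, two-sided, p = 0.333), and 5.71 points above without Lama5 WT 2. This difference was 0.513 points with at least 4 rule genes required and -0.149 points with 1 or more G2/M genes (exact permutation test, two-sided, p = 1 for both).

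Whether deletion of Lama5 in Tek-Cre mice altered the neuroblasts was tested on counts summed per library, with edgeR's quasi-likelihood test and Benjamini-Hochberg adjustment over 6700 genes. Called were 2 genes at an adjusted p below 0.05 (0.0299%), 1 higher (0.0149%) and 1 lower (0.0149%), and 300 (4.48%) had an unadjusted p below 0.05. Gm42418, a lincRNA locus (chr17:39846958-39848788), had 3282 and 3073 CPM in the Lama4 WT libraries, 3880 in Lama4-/-, 15349 and 12702 in the Lama5 WT libraries, and 25654 and 30845 in Tek-Cre:Lama5-/-. It rose by 1.00 on the log2 scale (SE 0.11, edgeR adjusted p = 0.00787), with both Tek-Cre:Lama5-/- libraries above both of WT. The other cells moved the same way, from 31072 and 30626 CPM in Lama5 WT to 56296 and 60900 in Tek-Cre:Lama5-/-. Gm42418 overlaps a gene on the opposite strand, AY036118, so its reads are uncertain.

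Hbb-bs, a beta-globin chain of red blood cells (chr7:103826534-103828096), had 60.1 and 64.2 CPM in Lama4 WT, 12828 in Lama4-/-, 289 and 139 in Lama5 WT, and 9.50 and 8.83 in Tek-Cre:Lama5-/-. It fell by 4.47 on the log2 scale between Lama5 WT and Tek-Cre:Lama5-/- (SE 0.49, edgeR adjusted p = 0.00787), and the libraries did not overlap. In the other cells it went from 1475 and 1569 CPM in Lama5 WT to 942 and 1192 in Tek-Cre:Lama5-/-. Without Tek-Cre:Lama5-/- 2 neither gene was called, with an edgeR adjusted p of 0.147 for Hbb-bs and 0.0993 for Gm42418. The number of calls was 54 without Lama5 WT 1, 51 without Lama5 WT 2, 2 without Tek-Cre:Lama5-/- 1 and 1 without Tek-Cre:Lama5-/- 2. With no filter on low counts it was 50. Ttr, a choroid plexus gene, had 0 counts in both Lama5 WT libraries and 66.5 and 35.3 CPM in Tek-Cre:Lama5-/-. Its log2 change of 7.45 was not called (edgeR adjusted p = 0.122). It was called with at least 4 rule genes required and without cells of mixed markers. In the other cells Ttr went from 32.3 and 0.169 CPM in Lama5 WT to 1440.5 and 774 in Tek-Cre:Lama5-/-.

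The named gene groups of the neuroblasts passed this test in neither direction. Beside a median log2 change of -0.02 over all genes tested, 48% of them above 0 and 34.7% with libraries that did not overlap, the 19 GABAergic genes tested had a median of -0.07, with 7 above 0 and 6 without overlap. The 25 of migration and cytoskeleton had -0.09, with 6 above 0 and 11 without overlap, and the 12 of guidance and adhesion -0.01. The 3 laminin receptors tested were Itgb1 at 0.23, Itgb8 at 0.34 and Dag1 at -0.26. The 14 progenitor genes had a median of 0.00, the 10 signalling genes -0.12, the 5 dorsal genes -0.25 and the 10 of maturation -0.28. None of these genes was called.

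Over all 6700 genes tested, 48% were above 0, 34.7% had libraries that did not overlap and 4.48% an unadjusted p below 0.05 in edgeR. The 16 G2/M genes had a median of 0.14, with 12 above 0, 5 higher without overlap and 4 at an unadjusted p below 0.05 in edgeR. Among them, Top2a, the mitotic topoisomerase, had a log2 change of 0.31, Mki67, the proliferation marker, 0.40, Cenpf, a kinetochore protein, 0.34, and Kif11, a spindle motor, 0.64. None was called. Hist1h1e, a linker histone made in S phase, had 160 and 223 CPM in the Lama4 WT libraries, 190 in Lama4-/-, 329 and 295 in the Lama5 WT libraries, and 598 and 587 in Tek-Cre:Lama5-/-, with both Tek-Cre:Lama5-/- libraries above both of WT. Its log2 change was 0.93 (SE 0.15, edgeR adjusted p = 0.122). The 15 S-phase genes of the list had a median of -0.08.

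The 13 genes of dissociation and early stress response were all below 0, with a median of -1.55. Beside 4.48% of all genes tested, 8 of the 13 had an unadjusted p below 0.05 in edgeR, and 0 were called. Without cells of mixed markers 10 were tested, 7 below 0 and 3 above, with a median of -0.41. With at least 4 rule genes required the median of 10 tested was -0.86, with 1 called lower. Jun, an immediate-early transcription factor, had 1046 and 767 CPM in Lama4 WT, 948 in Lama4-/-, 758 and 1045 in Lama5 WT, and 511 and 426 in Tek-Cre:Lama5-/-, a log2 change of -0.96 (SE 0.17, edgeR adjusted p = 0.193). In the other cells Jun lay at 3361 and 3516 CPM in Lama5 WT and at 3257 and 3129 in Tek-Cre:Lama5-/-. Fos had 276 and 162 CPM in the Lama4 WT libraries, 828 in Lama4-/-, 176 and 1101 in the Lama5 WT libraries, and 159 and 221 in Tek-Cre:Lama5-/- in neuroblasts and Atf3 had 16.03 and 13.5 CPM in Lama4 WT, 97.7 in Lama4-/-, 66.9 and 364 in Lama5 WT, and 47.5 and 72.9 in Tek-Cre:Lama5-/-. Both were far apart between the 2 Lama5 WT libraries themselves. Single cells weighed heavily on these genes, with up to 91% of a library's neuroblast UMIs of Fos in 1 cell. These genes react to tissue digestion, and their part in the other results was not tested.

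**Figure D4:**
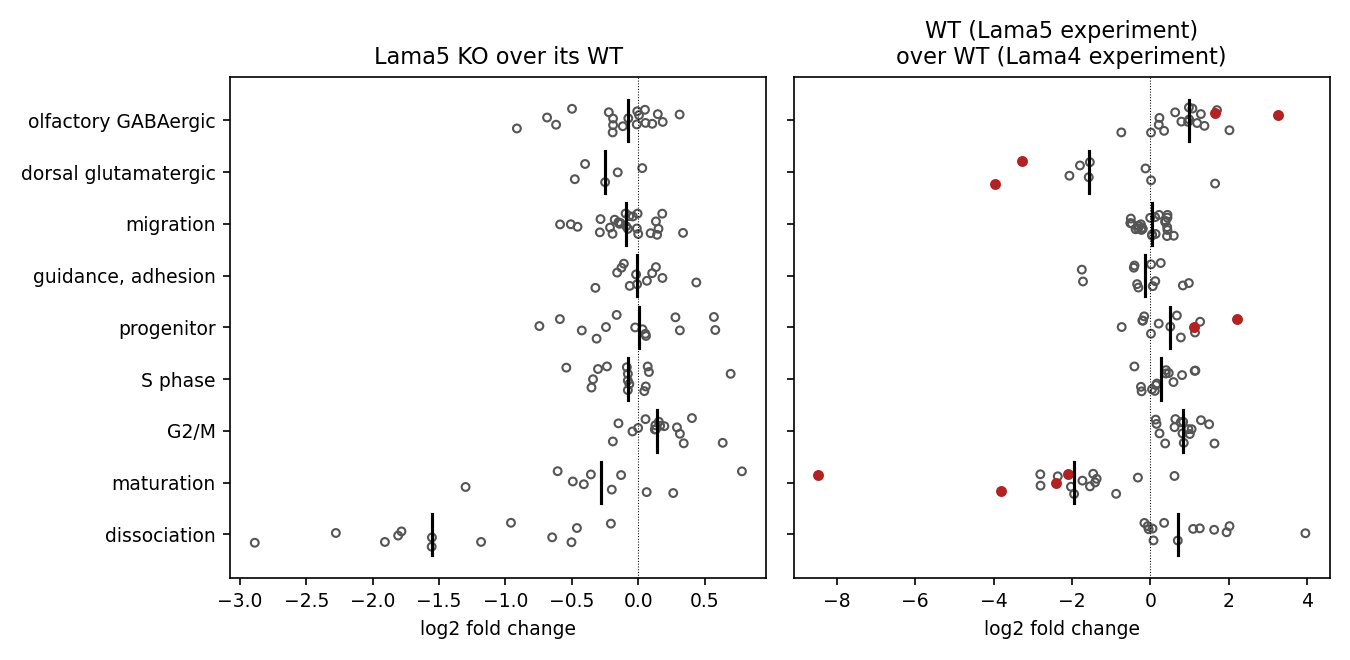
Log2 change of each tested gene, grouped by list, for Tek-Cre:Lama5-/- over Lama5 WT and for Lama5 WT over Lama4 WT; a filled red point passed the edgeR test and the bar is the list's median. The horizontal ranges of the panels differ. The dissociation genes lie at a median of -1.55 in the first (-0.41 without cells of mixed markers), and the maturation genes at -1.95 in the second (-0.81 with at least 4 rule genes required).

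For Lama4-/-, with 1 library, differences were described by a fixed rule of size, and none was tested. Eligible were 1593 genes with a mean of 100 CPM or more in either group and WT libraries less than 0.5 apart on the log2 scale. Of them 79 (4.96%) passed a log2 ratio of 1 against each WT library, 33 higher (2.07%) and 46 lower (2.89%). Log2 ratios here use (CPM + 10). The lower genes were led by those of mature neurons. Camk2a, a synaptic kinase, had 168 and 152 CPM in the WT libraries and 5.75 in Lama4-/- (1 count, exact Poisson 95% interval 0.146 to 32.0 CPM), a log2 ratio of -3.43. Scn2a, a neuronal sodium channel, had 236, 172 and 17.2 CPM (-2.98). Cyfip2, a partner of the FMRP protein, had 204, 172 and 17.2 CPM (-2.86), Pacsin1 192, 142 and 17.2 (-2.70), Frrs1l 160, 149 and 17.2 (-2.59), and Arpp21 248, 186 and 28.7 (-2.55). That these genes lay below both WT libraries follows from the rule of size and is no further result. Their WT values rested partly on single cells. In Lama4 WT 1 and Lama4 WT 2, 1 cell held 42.9% and 40.0% of the Camk2a UMIs and 39.0% and 43.1% of those of Scn2a. For Cyfip2 the shares were 35.3% and 39.2%, and for Arpp21 30.6% and 27.3%.

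The maturation list showed the same side: of its 16 genes at 50 CPM or more, 14 were below both Lama4 WT libraries in Lama4-/- and 1 above both, with a median log2 ratio of -2.32. Over all 4805 genes at that level, 1982 were below both and 1637 above both, with a median of -0.06. The 2 WT libraries themselves differed by a median of -0.49 for the maturation genes. Snap25 stood at 1118 and 473 CPM in WT and 46.0 in Lama4-/-, and Syt1, the calcium sensor of vesicle release, at 753, 230 and 23.0. The 14 GABAergic genes had a median log2 ratio of -0.11, 3 below and 4 above both, the 25 of migration -0.17, the 13 of progenitors 0.25 with 7 above both and none below, the 12 of S phase -0.43 with 10 below both, and the 16 of G2/M 0.49 with 5 above both and none below. These are 21 cells against 46, and the glutamatergic class, which holds most of the cells with mature markers, makes up 23.8% of the first and 35.0% and 38.5% of neuroblasts in the WT libraries. Its part in the ratios was not tested.

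Of the 20 genes with the largest ratios, 14 were higher in Lama4-/-, and each had at least 76.2% of its UMIs there in 1 cell. Hbb-bs had 12828 CPM in its neuroblasts, of which 99.9% lay in 1 cell. Without that cell the log2 ratio of 7.48 became -1.32, at 19.0 CPM, near the floor of 3 counts. Tmem212, a gene of ciliated ependymal cells, had 264 CPM, all in 1 cell, and 0 counts in WT. Ccdc153, another ciliary gene, and Rgs5, a pericyte gene, likewise had 100% of their UMIs in 1 cell. So had the globin chains Hbb-bt and Hba-a2. Hba-a1, outside the rule because its WT libraries differ, went from a WT mean of 15.7 CPM to 1994, also all in 1 cell. Rarres2 had 97.6% in 1 cell, Pltp 89.5%, 1500015O10Rik 89.3%, Rbpms and Tppp3 84.2%, Anxa5 83.3%, Tm4sf1 81.5% and Ifitm3 76.2%. Over all 7 libraries, 5 neuroblasts had at least 3 ependymal markers.

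**Figure D5:**
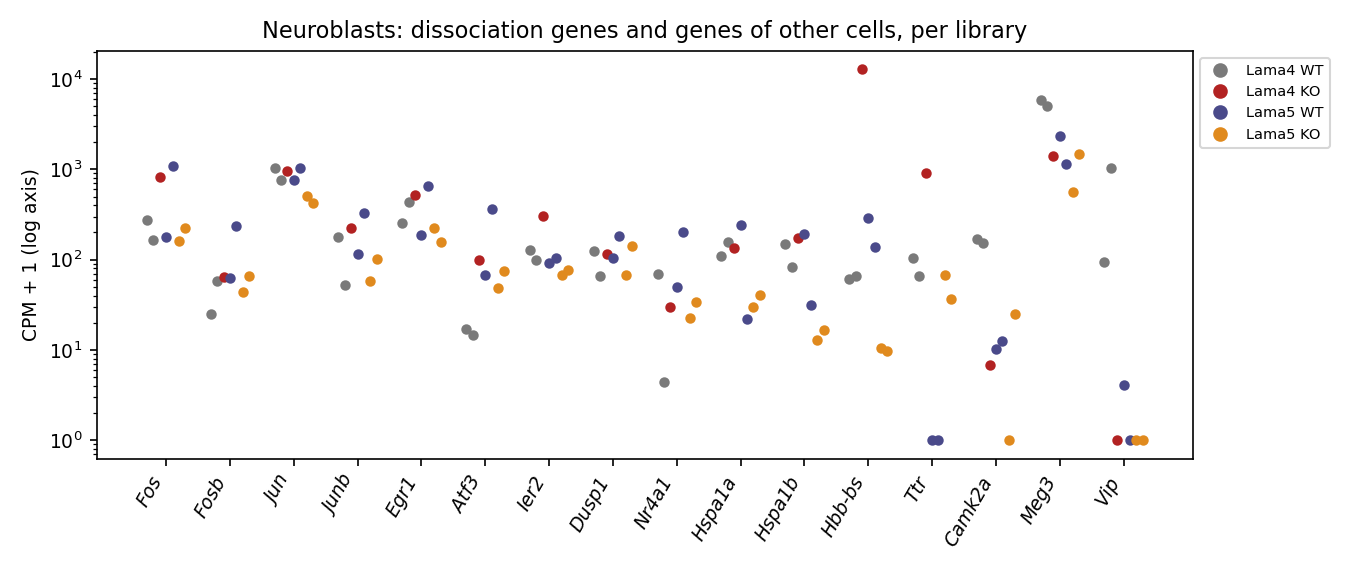
CPM + 1 on a log axis in the neuroblasts of each library, one dot a library coloured by group (KO stands for -/-), for genes of dissociation stress and for Hbb-bs, Ttr, Camk2a, Meg3 and Vip. Hbb-bs reaches 12828 CPM in the neuroblasts of Lama4-/- through a single cell and stands at 8.83 to 289 CPM in the other libraries.

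The 2 WT groups were compared to show how far the experiments differ without a deletion. In Lama5 WT over Lama4 WT, 128 of 6007 genes were called by edgeR (2.13%), 33 higher (0.549%) and 95 lower (1.58%), and 1307 (21.8%) had an unadjusted p below 0.05. Experiment, mouse pool and library depth cannot be told apart in this comparison, and it shares the Lama5 WT libraries with the test of Tek-Cre:Lama5-/-. Without Lama4 WT 1 there were 505 calls, without Lama4 WT 2 1038, without Lama5 WT 1 342 and without Lama5 WT 2 199. Without the 33 glutamatergic cells, a choice made after seeing the data, there were 8, of which 7 were among the 128.

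Genes called lower in Lama5 WT included those of the dorsal lineage and of mature neurons. Neurod1 fell by 3.95 (SE 0.58, edgeR adjusted p = 0.0288) and Neurod2 fell by 3.27 (SE 0.51, edgeR adjusted p = 0.0297), both on the log2 scale. Both rested on few cells: in the Lama4 WT libraries Neurod1 was found in 3 and 6 cells, with 88.2% and 64.3% of its UMIs in 1 cell. Neurod2 was found in 5 and 5 cells, with 43.5% and 52.9% in 1 cell. Without Lama4 WT 1 Neurod2 had an edgeR adjusted p of 0.124. Fezf2, the factor of deep-layer projection neurons, fell by 3.31. Camk2a, at 9.13 and 11.6 CPM in Lama5 WT, fell by 3.82 (SE 0.36, edgeR adjusted p = 0.00529), and its relative Camk2n1 fell by 3.28. Rbfox3 had 152 and 122 CPM in the Lama4 WT libraries, 97.7 in Lama4-/-, 24.3 and 34.7 in the Lama5 WT libraries, and 33.2 and 39.7 in Tek-Cre:Lama5-/- and fell by 2.10 (SE 0.33, edgeR adjusted p = 0.0297). Meg3 had 5854 and 5053 CPM in Lama4 WT, 1408 in Lama4-/-, 2334 and 1151 in Lama5 WT, and 558 and 1466 in Tek-Cre:Lama5-/- and fell by 1.59 (edgeR adjusted p = 0.0423). Slc12a5, the chloride transporter KCC2 of mature neurons, fell by 2.40, with an edgeR adjusted p of 0.0678 without Lama5 WT 2. The WT libraries of the 2 experiments did not overlap for these genes. With at least 4 rule genes required, 4 genes were called in all, and of the genes named here and in the preceding paragraph Neurod1 alone was among them. Rbfox3 and Meg3 then had edgeR adjusted p-values of 0.0697 and 0.257, while Neurod2, Camk2a and Slc12a5 no longer passed the filter on low counts. Without the glutamatergic cells, Neurod1, Neurod2 and Camk2a did not pass that filter, Rbfox3 and Slc12a5 had edgeR adjusted p-values of 0.185 and 0.0591, and Meg3 was called.

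Further genes among the 20 largest changes follow. Lypd1, a modulator of acetylcholine receptors, fell by 5.30, Adcy2, an adenylyl cyclase, fell by 4.13, and Dnm1, the dynamin of synaptic vesicle recycling, fell by 3.31. In the Lama4 WT libraries 87.5% and 33.3% of the Lypd1 UMIs lay in 1 cell, 67.9% and 40.0% of those of Adcy2, and 38.2% and 43.8% of those of Dnm1. Vgf, a neuropeptide precursor, fell by 3.63, with an edgeR adjusted p of 0.0688 without Lama4 WT 1. Car10 fell by 3.98, Adgra1 by 3.88, Gstp1 by 3.68, C1qtnf4 by 3.58 and Slc6a17 by 3.30, of which Car10 was not called without Lama4 WT 1, Lama5 WT 1 or Lama5 WT 2 (edgeR adjusted p = 0.285, 0.0941 and 0.197) and Slc6a17 not without Lama4 WT 1 (edgeR adjusted p = 0.0527). Gstp1, a detoxifying enzyme, stood at similar levels in the other cells of Lama4 WT (69.0 and 95.6 CPM) and in their neuroblasts (72.1 and 91.2 CPM). In Lama5 WT the other cells had 45.5 and 38.5 CPM of Gstp1 and the neuroblasts 3.04 and 7.70 CPM. Slc1a2, a glutamate transporter counted here among the astrocyte markers, fell by 1.53.

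By list, 16 of 17 maturation genes were below 0, with a median of -1.95, 4 called and 15 without overlap, beside a median of 0.00, 50.3% above 0 and 53.9% without overlap over all genes. Of 9 dorsal genes 7 were below 0, with a median of -1.57, 2 called and 6 lower without overlap. Without the glutamatergic cells, 11 of 11 maturation genes tested were below 0, with a median of -2.24 and 0 called by edgeR among 4781 genes. With at least 4 rule genes required, 6 maturation genes were tested, 5 of them below 0, with a median of -0.81 and 0 called. The 5 dorsal genes then tested had a median of -0.31, with 1 called. Without cells of mixed markers 316 of 5355 genes were called (5.90%). In that setting 16 of 17 maturation genes were below 0, with a median of -1.30 and 11 called lower. Of 8 dorsal genes 7 were below 0, with a median of -1.21 and 3 called lower.

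Genes called higher in Lama5 WT included those of GABAergic and progenitor identity. Dlx6, the partner of Dlx5, had 4.01 and 3.38 CPM in the Lama4 WT libraries, 5.75 in Lama4-/-, 39.6 and 34.7 in the Lama5 WT libraries, and 42.7 and 30.9 in Tek-Cre:Lama5-/- and rose by 3.26 (SE 0.64, edgeR adjusted p = 0.0465). Dlx6 lies within its antisense transcript Dlx6os1 (chr6:6820189-6871592, minus strand), so that the 2 may share reads. Sp8 rose by 1.63 (SE 0.32, edgeR adjusted p = 0.0465). Sox9, a glial and stem cell factor, had 52.1 and 57.4 CPM in Lama4 WT, 138 in Lama4-/-, 192 and 293 in Lama5 WT, and 266 and 247 in Tek-Cre:Lama5-/- and rose by 2.20 (SE 0.32, edgeR adjusted p = 0.0288). In the Lama5 WT libraries 17.5% and 52.6% of the Sox9 UMIs lay in 1 cell. Btg1, an antiproliferative factor, rose by 1.10, with an edgeR adjusted p of 0.134 without Lama5 WT 2. Eif4ebp1, a repressor of translation initiation, rose by 3.61, and was not called without Lama5 WT 1 or Lama5 WT 2 (edgeR adjusted p = 0.168 and 0.428). A430106G13Rik rose by 4.21 (SE 0.50, edgeR adjusted p = 0.0209). Dlx6 was not called without Lama4 WT 1, Lama5 WT 1 or Lama5 WT 2, with edgeR adjusted p-values of 0.0635, 0.522 and 0.563, and Sp8 and Sox9 were not called without the glutamatergic cells (edgeR adjusted p = 0.266 and 0.0835).

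Over all genes tested, 50.3% were above 0, 53.9% had libraries that did not overlap and 21.8% an unadjusted p below 0.05 in edgeR. Of 18 GABAergic genes tested, 17 were above 0, with a median of 0.98, 2 called and 11 higher without overlap. Without the glutamatergic cells 14 of 16 were above 0, with a median of 0.62 and 0 called. With at least 4 rule genes required 16 of 17 were above 0, with a median of 0.78 and 0 called. Without cells of mixed markers 16 of 18 were above 0, with a median of 1.06 and 7 called higher. The 13 progenitor genes had a median of 0.50, with 2 called, and all 16 G2/M genes were above 0, with a median of 0.82, 5 at an unadjusted p below 0.05 and 0 called by edgeR. The 25 genes of migration and cytoskeleton had a median of 0.04, with 13 above 0 and 0 called, and the 12 of guidance and adhesion -0.15, with 6 above 0. The 9 signalling genes had a median of 0.80, with 8 above 0, 8 higher without overlap and 0 called.

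Some of the called genes followed the other cells of the libraries or single cells. Ttr, the choroid plexus transthyretin, had 104 and 64.2 CPM in Lama4 WT neuroblasts and 0 counts in Lama5 WT. The other cells had 3461 and 2733 CPM of Ttr in Lama4 WT and 32.3 and 0.169 CPM in Lama5 WT. Vip, an interneuron peptide, had 92.2 CPM in Lama4 WT 1, all in 1 cell, and 1033 CPM in Lama4 WT 2, with 99.7% of it in 1 cell. It stood at 3.04 CPM and 0 counts in Lama5 WT and fell by 8.47 on the log2 scale (SE 1.53, edgeR adjusted p = 0.0423). The part of free RNA from other cells in these values was not tested.

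Markers of other cell types were summed over the neuroblasts as well. The endothelial markers summed to 159 to 351 CPM against 14128 to 15507 in the other cells, the microglial markers to 97.4 to 213 CPM and the oligodendrocyte markers to 108 to 321 CPM, all 3 limited by the rule. Astrocyte markers, which the rule did not use and which neural stem cells share, summed to 596 to 1218 CPM against 753 to 2464. Markers of mature neurons summed to 857 to 8831 CPM against 71.2 to 121, and interferon-response genes to 28.0 to 187 CPM against 638 to 879. Ependymal markers summed to 8.01 to 903 CPM against 145 to 254, above the other cells in Lama4-/-, Lama5 WT 2 and both Tek-Cre:Lama5-/- libraries. Pericyte markers summed to 2.21 to 914 CPM against 1012 to 1417, and choroid plexus markers to 0 to 983 CPM against 6.65 to 21967, both highest in Lama4-/-. Markers of T and NK cells reached 28.7 CPM and lay above the other cells in 3 of 7 libraries, while those of fibroblasts reached 30.4 CPM and of myeloid cells 48.1 CPM, below the other cells in 7 of 7. The T cell gene Cd3e, the fibroblast genes Lum and Col1a1, the monocyte gene Ccr2 and the neutrophil gene Ly6g had 0 counts.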

How the data were processed

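The authors deposited raw UMI counts per gene and barcode from Chromium Single Cell 3′ v3 libraries. Cell Ranger, Seurat 3.1 and mm10 are named per the submitters' processing notes, and 3.1.0 is the software version per the file headers. The settings of cell calling are not given in the sources used here. Of 31053 gene IDs, 31011 (99.9%) matched GENCODE M21 on GRCm38, the source of coordinates. Of 56961 barcodes, 4352 had under 500 genes and a further 2355 failed the mitochondrial limit. No doublet caller and no clustering was run. Doublets were treated only by the exclusion limits and an alternative that leaves out cells of mixed markers.

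Counts were summed over neuroblasts per library and tested with edgeR 4.0.16 (R 4.3.3, filterByExpr, TMM, quasi-likelihood F test, adjusted p below 0.05). DESeq2 1.42.0 was an alternative. Shares were tested with exact permutation tests (scipy 1.17.1). Tested on simulated counts, edgeR recovered 5% of 100 genes changed by 1 on the log2 scale and 57% of 100 changed by 2 among 6669 genes (Tek-Cre:Lama5-/- against Lama5 WT), and 4% and 55% among 5871 (the 2 WT groups). The simulation gave every gene the same spread between libraries (dispersion 0.1) and changed only genes of at least 100 summed counts. Genes with most UMIs in 1 cell were not modelled, so these percentages do not cover them. Named were the genes of the rule, list genes of at least 50 CPM or of at most 3 counts, called list genes, the 25 genes highest against other cells and the 20 largest changes per comparison. In the edgeR comparisons these largest changes were taken only from called genes whose libraries did not overlap. Members and lists were chosen with earlier results of these data known. Intervals and the floor of 3 counts cover counting error only, for which total UMIs set the precision. Some genes that the rule names are not reported here.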

Additional observations from a re-analysis of the deposited data

Results flagged for a closer look

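For Hbb-bs, a beta-globin chain, the -/- libraries lay on opposite sides of their WT libraries in the 2 experiments, in Lama4-/- through 1 cell. Its log2 change in neuroblasts of Tek-Cre:Lama5-/- against Lama5 WT was -4.47, while the Lama4-/- library lay above both of its WT libraries, at 12828 CPM against 60.1 and 64.2. The difference between the experiments was not tested. In the Lama4-/- library, 99.9% of the UMIs of Hbb-bs lay in 1 of 21 cells. Without that cell its log2 ratio against WT, 7.48 with it, was -1.32, the same direction as in Tek-Cre:Lama5-/-. In the Lama5 WT 1 library 48.4% lay in 1 of 48 cells.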

How the results depend on the processing

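The number of genes called in Tek-Cre:Lama5-/- against Lama5 WT, 2 as reported, was 6 with at least 4 rule genes required, 4 without cells of mixed markers, 50 with no filter on low counts, 17 with the replicate block, 3 with DESeq2 and 2 with RLE size factors or all 7 libraries in 1 fit. It ranged from 1 to 54 when single libraries were left out. In Lama5 WT against Lama4 WT, 128 as reported, it was 4 with at least 4 rule genes, 316 without cells of mixed markers, 8 without the glutamatergic cells, 864 with no filter, 69 with DESeq2, 7 with the replicate block, 162 with RLE size factors and 140 with all libraries in 1 fit (90 higher and 50 lower, against 33 and 95). It ranged from 199 to 1038 when single libraries were left out. The cause of these shifts was not tested, apart from fewer or more genes and samples entering. For the block, the deviations of samples of the same number from their group means had correlations of 0.04 and 0.00. With 2 libraries a group, these cannot show whether such samples share more than a number.

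The dividing share of Lama4-/- minus its WT was -16.3 points with at least 4 rule genes. That of Lama5 WT minus Lama4 WT was -0.149 points with 1 or more G2/M genes in place of 2, the opposite of the reported direction. Without cells of mixed markers the log2 ratios of Lama4-/- against WT became 0.00 for Tmem212 and Ccdc153, -0.58 for Pltp and -1.27 for Rgs5. The cause was not tested. The neuroblasts of a library were 20 to 74 cells with 173990 to 519451 summed UMIs.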
